A study of Mus musculus with 8 samples.

Results

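Genes of the unfolded protein response and of the integrated stress response were followed in total RNA of mouse myotubes grown in culture, which are muscle cells with many nuclei formed by fusion of precursors. The 36 genes were taken from a list, and their probe sets were those annotated to each gene on 2 types of oligonucleotide expression array, called A and B here. For every gene the probe set with the highest mean over the 4 arrays of a type was used, from type A if the gene was on it and from type B if not, and the same choice gave 18193 genes in all. All 36 were on type A. They fell into 15 genes of protein folding in the endoplasmic reticulum (ER), 4 genes of ER-associated degradation, 13 genes of the ATF4 arm, and 4 sensors and their immediate effector.

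There were 4 RNAs, each measured on 1 array of each type. The labels call 1 RNA truncated Egr3 and 1 RNA wildtype, both with a growth treatment; Egr3 is a zinc-finger transcription factor needed for muscle spindle development. RNA275 carries an acclimatization treatment and no more, and RNA276 no treatment, so neither was placed in a group. The labels give no strain, age or number of cultures, and do not state how the truncated form came into the cells or whether wildtype means the cells or the Egr3 protein.

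Proteins that enter the ER are folded there by chaperones and disulfide isomerases. When unfolded protein accumulates, 3 membrane sensors respond: IRE1 splices the messenger of the transcription factor XBP1, ATF6 is cut to release a transcription factor, and PERK phosphorylates the translation initiation factor eIF2. Phosphorylated eIF2, which other kinases also produce when amino acids are short or double-stranded RNA is present, lowers protein synthesis while the transcription factor ATF4 is translated. ATF6 and XBP1 raise chaperone and degradation genes, and ATF4 raises amino acid synthesis and transport genes together with the factor CHOP, encoded by Ddit3. In muscle, genes of these responses are active during differentiation.

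Signals are linear intensities. They were floored at 67.6 on type A and 112.6 on type B before the log2 difference of truncated Egr3 minus wildtype was taken, and measured genes are those with at least 1 of these 2 RNAs above the floor. If 1 of the 2 was at or below the floor, the difference is a bound, and its true size is at least the one given. With 1 RNA per label there are no replicates, so no test was possible, p-values are left out, and a difference is a description of these 2 RNAs alone. The error that could be measured was technical: from 100 probe sets that both array types carry, a single log2 difference had an SD of 0.17, a 95% half-width of 0.34. The same probe sets gave a difference that was on average 0.14 lower on type A than on type B. The median signal of the 36 genes was 339 and that of the 100 probe sets was 346. The 100 were not filtered by signal, and any at the floor can make the SD smaller. The SD compares the same probes on 2 arrays, so differences between probe sets of a gene are not in it.

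Rank correlations between RNAs over probe sets lay between 0.879 and 0.973, and the 3' over 5' ratio of the beta-actin controls lay between 1.05 and 1.19. All 10 myotube markers were above the floor in all 4 RNAs; 8 of the 10 had a log2 difference below 0, between -0.35 and -0.06, and their summed signal was 18764 in truncated Egr3 and 21088 in wildtype. Of 8 macrophage markers, 2 were measured, with log2 differences of -0.08 and 0.16, and Ptprc was at 10.7 in truncated Egr3 and 8.64 in wildtype. Of 6 fibroblast markers, 3 were measured, with Dcn 2-fold higher in truncated Egr3 (317, against 157 in wildtype), Col3a1 at 0.08 and Col1a1 at -0.33, and with Pdgfra, Thy1 and Lum below the floor in every RNA. Of the markers listed for other cells, 1 of 4 endothelial, 0 of 4 adipocyte, 1 of 4 Schwann and glial, 2 of 5 smooth muscle and pericyte and 2 of 4 proliferation markers were measured, with Tagln the furthest apart at -0.83. The summed signal of the fibroblast list was 7356 in truncated Egr3 and 7902 in wildtype, that of the macrophage list was 403 in truncated Egr3 and 406 in wildtype, and that of the smooth muscle and pericyte list was 4005 in truncated Egr3 and 5451 in wildtype. The part of culture composition in the stress gene differences was not tested, and in bulk RNA fewer cells of a type and less RNA per cell cannot be told apart. Egr3 itself read 829.9 in truncated Egr3 and 769 in wildtype on type A, and 1039 in truncated Egr3 and 1419.7 in wildtype on type B. Where these probe sets lie relative to the truncation was not analysed here, so they check nothing about the label.

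Signals of the stress genes were higher in truncated Egr3 than in wildtype for most members. Of the 35 measured by the probe set chosen, 31 had a log2 difference above 0 and 4 below, with a median of 0.27. Among the 7239 genes of type A that were measured, 48.6% were above 0 and the median was -0.01. Ddit3 was the 1 member called at 2-fold or more, where 0.594% of type A genes were called higher and 1.2% lower, and no member was 2-fold lower. At 1.5-fold, 8 of 35 members were higher, 22.9%, against 4.64% of type A genes; the 8 were Ddit3, Dnajb9, Pdia4, Syvn1, Herpud1, Sdf2l1, Manf and Trib3. In the other direction 1 of 35, Atf3, was 1.5-fold lower, against 4.46% of type A genes. The differences of 13 members exceeded the technical half-width of 0.34 upwards, 37.1%, against 14.5% of type A genes, and those of 2 members, Atf3 and Ern1, did so downwards, against 13.0% of type A genes. Most members therefore lay above 0 by amounts that the technical error of a single gene could span. Over all genes of both types, 50.1% were above 0, 4.7% were 1.5-fold higher and 4.59% lower, 0.534% were 2-fold higher and 1.13% lower, and 15.1% were past the half-width upwards.

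**Figure D1:**
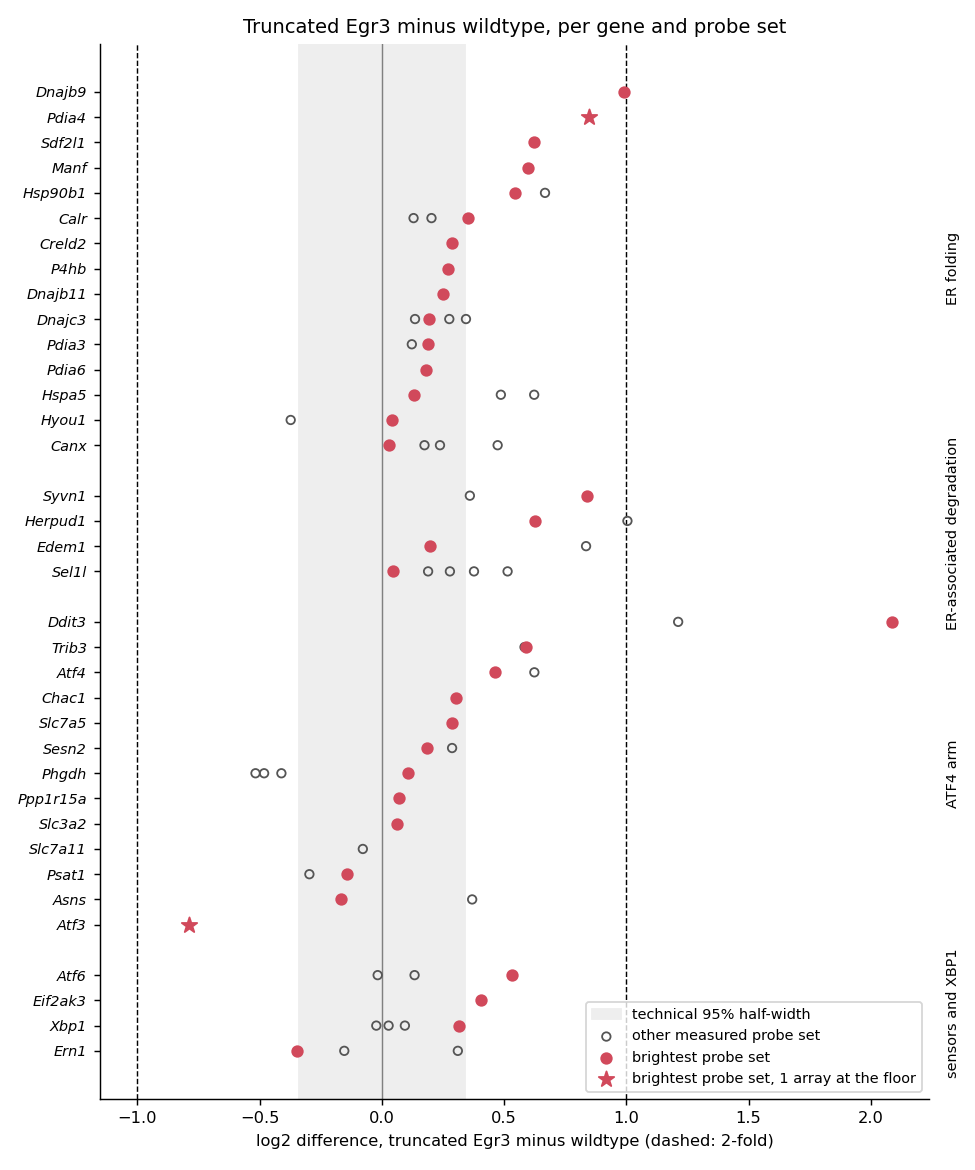
The log2 difference of truncated Egr3 minus wildtype is plotted for each stress gene, grouped by arm, with filled points for the brightest probe set, stars where 1 array was at the floor and open points for other measured probe sets. The grey band is the technical 95% half-width of 0.34 and dashed lines mark 2-fold; Ddit3 lies past the 2-fold line at 2.08 and Atf3 is the lowest at -0.79, a bound.

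Ddit3 encodes CHOP, a transcription factor raised by ATF4 that is linked to cell death under prolonged ER stress. It read 546 in truncated Egr3 and 129 in wildtype, and 222 in RNA275 and 332 in RNA276. Truncated Egr3 was thus the highest and wildtype the lowest of the 4 RNAs. The difference of 2.08, or 4.24-fold, was the second largest positive difference among 10307 measured genes. Its other probe set, on type B, read 261 in truncated Egr3, 82.7 in wildtype, 99.3 in RNA275 and 139 in RNA276, a bound of 1.21 because the wildtype array was at the floor. By both probe sets truncated Egr3 was the highest and RNA276 the next; the other RNAs were below the floor on type B and have no order there.

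In the folding arm, all 15 genes were above 0, between 0.03 and 0.99, with a median of 0.27, and 4 of them were 1.5-fold higher in truncated Egr3. Dnajb9, or ERdj4, a J-domain partner of the chaperone BiP, read 699 in truncated Egr3 and 352 in wildtype, and 536 in RNA275 and 339 in RNA276. Its difference of 0.99 was just under 2-fold. Wildtype and RNA276 were alike and low for this gene, and RNA275 lay between them and truncated Egr3.

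Pdia4, the disulfide isomerase ERp72, read 121 in truncated Egr3 and 53.9 in wildtype, and 117 in RNA275 and 64.5 in RNA276. The difference is at least 0.85, at least 1.80-fold, since wildtype was below the floor. Here truncated Egr3 and RNA275 were above the floor, and wildtype and RNA276 were below it. The other Pdia4 probe set was below the floor in all 4 RNAs.

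Sdf2l1, a partner of the BiP co-chaperone ERdj3, read 113 in truncated Egr3, 73.7 in wildtype, 79.99 in RNA275 and 64.1 in RNA276. Its difference was 0.62, with the wildtype signal close to the floor. Manf, a secreted ER-resident factor, read 845 in truncated Egr3, 558 in wildtype, 695 in RNA275 and 742 in RNA276, a difference of 0.60. Each of these genes has a single probe set, so no second reading was available.

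Hsp90b1, the ER form of Hsp90 known as Grp94, read 1343 in truncated Egr3, 922 in wildtype, 666 in RNA275 and 401 in RNA276. It had the widest spread over the 4 RNAs of the folding arm, 3.35-fold from the lowest to the highest. Its difference of 0.54 was matched by 0.67 from its other probe set.

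Hspa5, which encodes BiP, the main chaperone of the ER and the usual marker of the unfolded protein response, read 3003 in truncated Egr3, 2738 in wildtype, 2097 in RNA275 and 2139 in RNA276. Its difference was 0.13 by the brightest probe set and 0.62 and 0.49 by 2 others, so the chosen probe set gave the smallest value of the 3. The lectin chaperone genes Calr and Canx had differences of 0.35 and 0.03. For Canx the same probe set was on both array types and gave 0.03 on type A and 0.24 on type B. The disulfide isomerase genes P4hb, Pdia3 and Pdia6 were at 0.27, 0.19 and 0.18. Of the BiP co-chaperone genes, Dnajb11 was at 0.25 and Dnajc3 at 0.19, and Creld2, another secreted ER factor, was at 0.29. Hyou1, a nucleotide exchange factor for BiP, was at 0.04 by its brightest probe set and at -0.37 by another. All of the differences in this paragraph taken from the brightest probe sets, other than that of Calr, were within the technical half-width.

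Over the 4 RNAs, 14 of the 15 folding genes had their highest signal in truncated Egr3, against 26.1% of 7625 type A genes above the floor in at least 1 RNA. The exception was Dnajb11, highest in RNA275 (284, against 197 in truncated Egr3, 166 in wildtype and 210.3 in RNA276). The lowest signal of the folding genes was in wildtype for 6, in RNA276 for 6 and in RNA275 for 3. Relative to each gene's mean over the 4 RNAs, the median log2 signal of the folding arm was 0.27 in truncated Egr3, -0.07 in wildtype, -0.01 in RNA275 and -0.21 in RNA276; over all type A genes these medians lay between -0.02 and 0.01. After scaling the arrays to equal medians, 11 of the 15 were highest in truncated Egr3. Some margins were small: Dnajc3 read 258 in truncated Egr3 and 254.5 in RNA276, and Canx 1135 in truncated Egr3 and 1113 in wildtype. Another measured probe set put RNA276 highest for Hspa5, Calr and Pdia3, and RNA275 highest for Dnajc3 and Hyou1. The other measured probe sets of Canx and Hsp90b1 had truncated Egr3 highest.

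**Figure D2:**
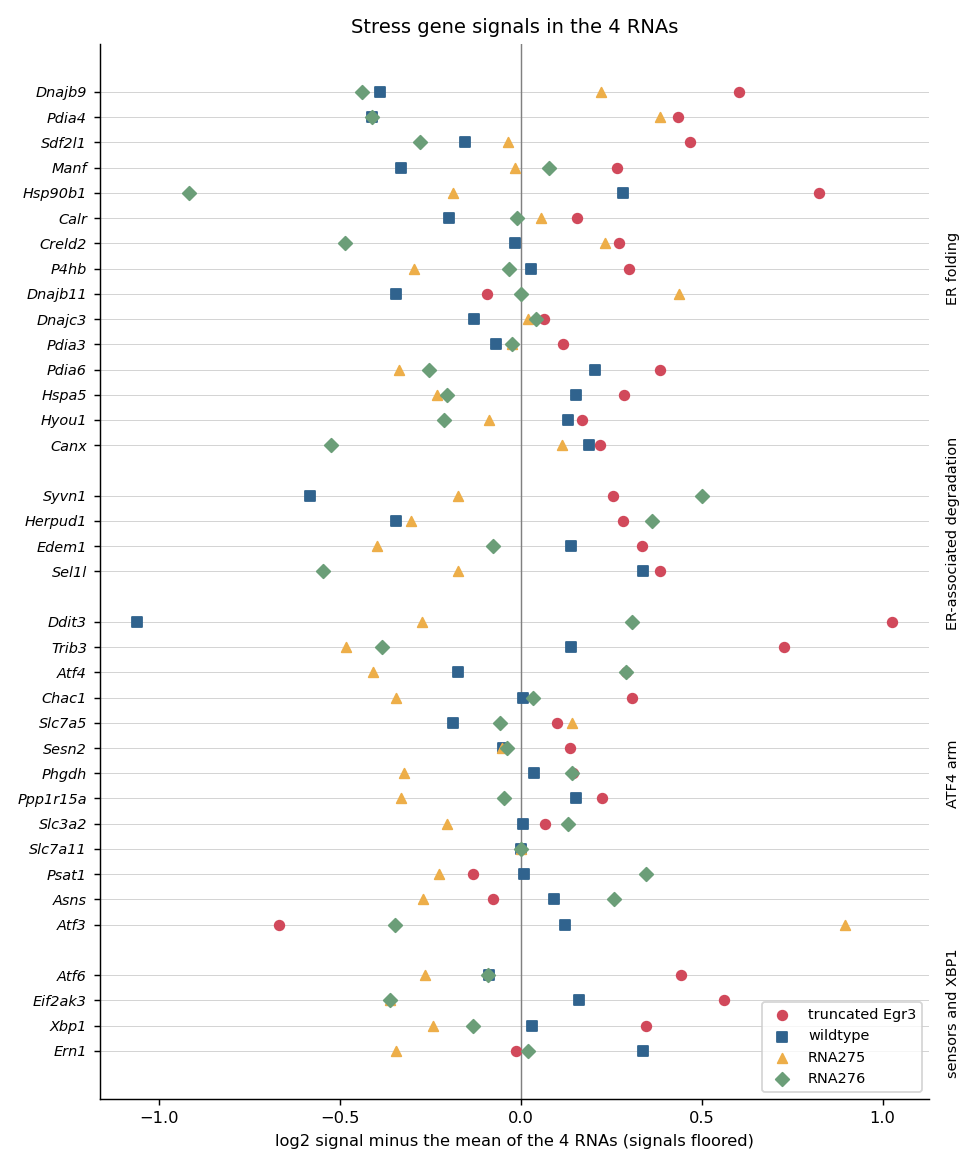
Each row is a stress gene and each point an RNA, plotted as floored log2 signal minus the gene's mean over the 4 RNAs. Circles of truncated Egr3 lie furthest right for 14 of 15 folding genes, while Atf3 has RNA275 at the right end and truncated Egr3 at the left; Slc7a11, whose type A probe set was below the floor in all 4 RNAs, has all points at 0.

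Several folding genes share a promoter element. The genes were listed for their part in the unfolded protein response, so a shared element of that response is not an independent result. The ER stress response element (ERSE) is CCAAT, then 9 bases of any kind, then CCACG; ATF6 and XBP1 bind its CCACG part and the factor NF-Y its CCAAT part. The related ERSE-II is ATTGG, then any base, then CCACG. Promoters of 300 bases, from 250 before the annotated start to 50 after it, were found for 32 of the 36 genes in a RefSeq table of the GRCm38.p6 build; Hyou1, Manf, Slc7a5 and Atf6 had no entry. The full ERSE was present, on either strand, in 8 of the 32, of which 7 were folding genes and 1 was Syvn1. It was present in 37 of 27025 genes of the table, 0.137%, and in 0.119% of its 32851 promoters. The ERSE-II was present in 2 of the 32 genes and in 12 of 27025, or 0.0444%. The CCACG part alone, which ERSE, ERSE-II and the reverse strand of the XBP1 element TGACGTGG all contain, was in 25 of the 32 and in 35.5% of all genes. TGACGTGG itself was in none of the 32 and in 0.714% of all genes. The cyclic AMP response element TGACGTCA was in 1 of the 32, Ppp1r15a, and in 2.03% of all genes. Among the 8 genes with a full ERSE the median difference was 0.24, between 0.03 and 0.84, which is close to that of the 36 genes as a whole. The matched sites are shown because they carry this shared feature, written 5′ to 3′ in the motif's own direction with the fixed letters in capitals, first the 9 ERSE sites and then the 2 ERSE-II sites.
Calr at chr8:84847075-84847093 (+ strand, nearest base 144 bases before the start): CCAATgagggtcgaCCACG
Canx at chr11:50325800-50325818 (- strand, nearest base 127 bases before the start): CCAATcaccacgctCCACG
Creld2 at chr15:88819520-88819538 (- strand, nearest base 108 bases before the start): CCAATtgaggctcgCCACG
Dnajc3 at chr14:118937827-118937845 (+ strand, nearest base 87 bases before the start): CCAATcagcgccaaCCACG
Hsp90b1 at chr10:86705533-86705551 (+ strand, nearest base 89 bases before the start): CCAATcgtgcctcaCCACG
Hsp90b1 at chr10:86705638-86705656 (- strand, nearest base 194 bases before the start): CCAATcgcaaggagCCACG
Hspa5 at chr2:34772025-34772043 (+ strand, nearest base 47 bases before the start): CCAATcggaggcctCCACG
Pdia6 at chr12:17266491-17266509 (+ strand, nearest base 80 bases before the start): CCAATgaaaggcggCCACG
Syvn1 at chr19:6046532-6046550 (+ strand, nearest base 26 bases before the start): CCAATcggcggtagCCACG
Dnajb11 at chr16:22857852-22857862 (+ strand, nearest base 8 bases after the start): ATTGGcCCACG
Herpud1 at chr8:94386377-94386387 (+ strand, nearest base 42 bases before the start): ATTGGgCCACG

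The 7 folding genes with the element were thus Hspa5, Hsp90b1, Calr, Canx, Dnajc3, Pdia6 and Creld2, and Hsp90b1 held it at 2 places. A match is a description of letters and not evidence of binding. The folding gene with the largest difference, Dnajb9, and the ATF4-arm gene Ddit3 held none of ERSE, ERSE-II, TGACGTGG or the ATF4 motif described below in this window. Their promoters are shown beside those of Hspa5, with its ERSE in capitals, and Herpud1, with its ERSE-II and ATF4 motif in capitals.
Hspa5 promoter, chr2:34771840-34772139, + strand: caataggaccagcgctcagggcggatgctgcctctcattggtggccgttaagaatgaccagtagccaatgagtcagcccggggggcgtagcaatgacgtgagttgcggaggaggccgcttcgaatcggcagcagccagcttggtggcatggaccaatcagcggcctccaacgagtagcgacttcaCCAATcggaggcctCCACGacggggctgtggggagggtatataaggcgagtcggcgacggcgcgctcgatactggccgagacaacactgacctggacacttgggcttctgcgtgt
Herpud1 promoter, chr8:94386179-94386478, + strand: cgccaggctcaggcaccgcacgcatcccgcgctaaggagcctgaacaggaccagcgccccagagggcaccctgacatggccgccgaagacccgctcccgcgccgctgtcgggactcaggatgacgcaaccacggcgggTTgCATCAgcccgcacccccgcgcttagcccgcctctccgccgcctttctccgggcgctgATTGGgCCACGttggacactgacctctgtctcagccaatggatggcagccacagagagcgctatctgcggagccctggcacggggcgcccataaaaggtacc
Ddit3 promoter, chr10:127290543-127290842, + strand: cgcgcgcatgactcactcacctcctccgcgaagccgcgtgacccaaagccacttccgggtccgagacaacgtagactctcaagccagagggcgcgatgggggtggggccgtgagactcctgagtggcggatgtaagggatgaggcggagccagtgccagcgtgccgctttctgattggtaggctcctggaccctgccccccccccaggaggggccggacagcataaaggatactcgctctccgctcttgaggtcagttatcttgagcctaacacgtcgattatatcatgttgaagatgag
Dnajb9 promoter, chr12:44210019-44210318, - strand: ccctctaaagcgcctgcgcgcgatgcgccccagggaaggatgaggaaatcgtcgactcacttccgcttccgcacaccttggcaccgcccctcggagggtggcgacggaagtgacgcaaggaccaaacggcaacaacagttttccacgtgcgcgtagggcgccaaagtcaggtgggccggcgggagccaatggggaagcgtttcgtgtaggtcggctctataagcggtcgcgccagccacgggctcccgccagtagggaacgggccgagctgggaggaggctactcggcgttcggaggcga

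Genes of ER-associated degradation, which moves unfolded proteins out of the ER for destruction by the proteasome, were above 0 in all 4 cases, with a median of 0.41. Syvn1, the ubiquitin ligase HRD1, read 421 in truncated Egr3, 235 in wildtype, 313 in RNA275 and 499 in RNA276, a difference of 0.84, with 0.36 from its type B probe set. Herpud1, which organises the HRD1 complex, read 519 in truncated Egr3, 336 in wildtype, 346 in RNA275 and 548 in RNA276. Its difference was 0.63, and its other probe set gave 1.004 and read 554 in truncated Egr3, 276.4 in wildtype, 206 in RNA275 and 293 in RNA276.

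By the type A probe set of Syvn1 and the brightest probe set of Herpud1, RNA276 was above truncated Egr3. By the other probe set of each gene truncated Egr3 was the highest. The type B probe set of Syvn1 read 1215 in truncated Egr3 and 1107 in RNA276. For both genes the order of these RNAs thus depends on the probe set. Edem1, a lectin that selects glycoproteins for degradation, was at 0.20 by its brightest probe set and at 0.83 by its other. Sel1l, the adaptor of HRD1, was at 0.05 by the brightest of its type A probe sets and between 0.19 and 0.51 by 4 others, the last of these on type B.

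The ATF4 arm was mixed. Of its 13 genes 12 were measured, 9 above 0 and 3 below, with a median of 0.15. Atf4, the factor translated when eIF2 is phosphorylated, read 1521 in truncated Egr3, 1102 in wildtype, 936 in RNA275 and 1521 in RNA276, a difference of 0.46, and 0.62 by another probe set. Trib3, a pseudokinase induced by ATF4 and CHOP that restrains both, read 483 in truncated Egr3, 322 in wildtype, 209 in RNA275 and 224 in RNA276, a difference of 0.59. Its other probe set gave 0.58. By the brightest probe sets truncated Egr3 was thus the highest for Trib3, and level with RNA276 for Atf4. The other measured probe set of Atf4 read 487 in truncated Egr3 and 394 in RNA276.

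Atf3, a stress-induced factor of the same family, went the other way. It read 53.3 in truncated Egr3, 117 in wildtype, 200.1 in RNA275 and 84.4 in RNA276. Truncated Egr3 was the lowest and below the floor, which makes the difference of -0.79 a bound, at least 1.73-fold lower in truncated Egr3. Atf3 has a single probe set, and without a floor its difference was -1.13.

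**Figure D3:**
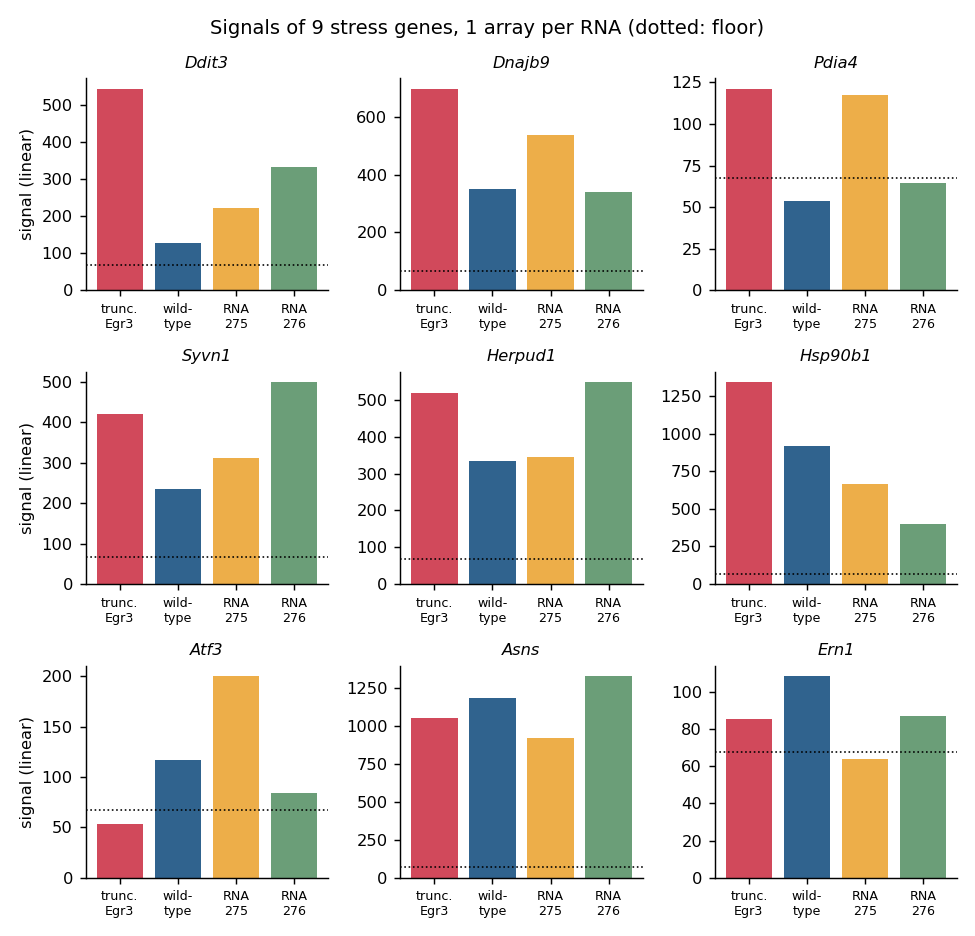
Bars give the signal of 9 genes in the 4 RNAs, 1 array of type A per bar on a linear axis starting at 0, with the floor of 67.6 dotted. Ddit3 is highest in truncated Egr3 at 546 and lowest in wildtype at 129, Herpud1 and Syvn1 are highest in RNA276, and Atf3 is highest in RNA275 and below the floor in truncated Egr3.

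By their brightest probe sets, the measured amino acid genes of the ATF4 arm stayed within the technical half-width. Other probe sets of Asns and Phgdh were past it. Asns, which makes asparagine, read 1052 in truncated Egr3, 1182 in wildtype, 920.3 in RNA275 and 1327 in RNA276, a difference of -0.17 that was 0.37 by its other probe set. Psat1, of serine synthesis, was at -0.14, and at -0.30 by its other probe set. Phgdh, the first enzyme of serine synthesis, was at 0.11 by its brightest probe set and between -0.52 and -0.41 by 3 others, so its direction was not settled. The transporter genes Slc7a5 and Slc3a2, which encode the light and heavy chains of the amino acid exchanger LAT1, were at 0.29 and 0.06. The cystine transporter gene Slc7a11 was not measured by its type A probe set, which read 24.6 in truncated Egr3, 33.0 in wildtype, 40.5 in RNA275 and 41.9 in RNA276, all below the floor. Its type B probe set read 101.7 in truncated Egr3, 119 in wildtype, 131 in RNA275 and 44.4 in RNA276, above the floor of 112.6 in wildtype and RNA275 alone, and gave a bound of -0.08. Chac1, which degrades glutathione, was at 0.30, Sesn2, an inhibitor of the mTORC1 growth pathway, at 0.19, and Ppp1r15a, which directs a phosphatase to eIF2 and ends the response, at 0.07.

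Over the 4 RNAs, 7 of the 12 measured ATF4-arm genes were highest in truncated Egr3, 3 in RNA276 and 2 in RNA275, against 26.1%, 27.2% and 24.8% of type A genes. The 7 include Atf4 and Phgdh, which were level with RNA276 by their brightest probe sets, Phgdh at 1106 in truncated Egr3 and 1105 in RNA276. By the other measured probe set of Atf4 truncated Egr3 was the highest. None of the other probe sets of Phgdh had truncated Egr3 highest. The count of 7 became 5 with equal medians and 9 with quantile scaling. The lowest was RNA275 for 9 of the 12, against 27.8% of type A genes. Over all 35 measured stress genes, truncated Egr3 was the highest for 26 and the lowest for 1, where 24.0% of type A genes had it lowest. Wildtype was the highest for 1, Ern1, and the lowest for 10, where 21.9% of type A genes had it highest and 16.8% lowest. RNA275 was the lowest for 16, and RNA276 for 8, where 31.4% of type A genes had it lowest. The arm's median relative to each gene's mean was 0.14 in truncated Egr3, 0.01 in wildtype, -0.27 in RNA275 and 0.08 in RNA276. The order of the RNAs other than truncated Egr3 thus differed between arms, by these medians, with RNA276 the lowest for the folding arm and RNA275 the lowest for the ATF4 arm. The difference between the arms was not tested.

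**Figure D4:**
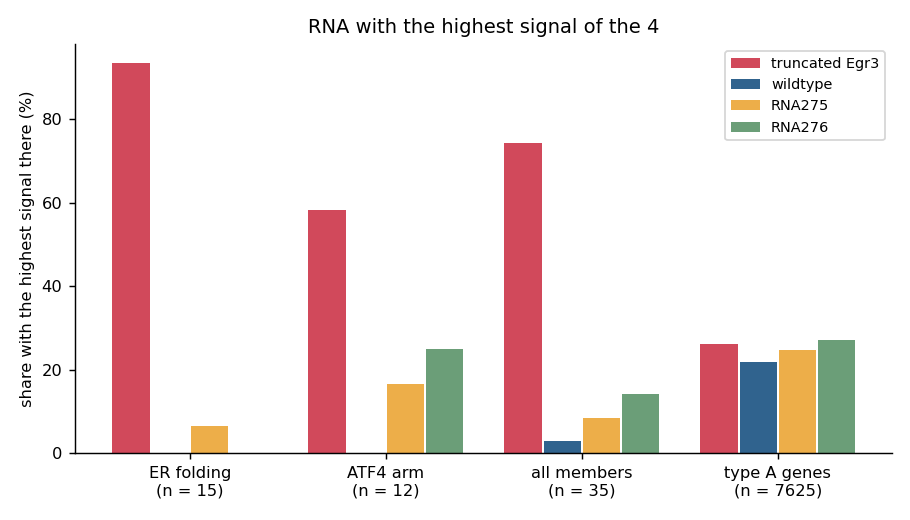
Bars give the share of genes whose highest signal of the 4 RNAs was in each RNA, for the folding arm, the ATF4 arm, all measured stress genes and all type A genes above the floor. Truncated Egr3 holds 14 of 15 folding genes, 7 of 12 ATF4-arm genes and 26 of 35 stress genes, beside 26.1% of type A genes.

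The ATF4 motif TGATGNAA, the C/EBP-ATF composite element that ATF4 binds with C/EBP partners, was found on either strand in 6 of the 32 promoters, 5 of them in the ATF4 arm, and in 4.51% of all genes of the table. The 5 were Asns, Atf3, Chac1, Slc7a11 and Trib3, and the differences of Asns, Atf3, Chac1 and Trib3 were -0.17, -0.79, 0.30 and 0.59, while the type A probe set of Slc7a11 was below the floor. Holders of the motif thus lay on both sides of 0. The sites are shown in the motif's direction with its fixed letters in capitals.
Asns at chr6:7693225-7693232 (- strand, nearest base 16 bases before the start): TGATGaAA
Atf3 at chr1:191183436-191183443 (+ strand, nearest base 103 bases before the start): TGATGcAA
Chac1 at chr2:119351049-119351056 (- strand, nearest base 186 bases before the start): TGATGcAA
Herpud1 at chr8:94386317-94386324 (- strand, nearest base 105 bases before the start): TGATGcAA
Slc7a11 at chr3:50443653-50443660 (+ strand, nearest base 40 bases before the start): TGATGcAA
Slc7a11 at chr3:50443672-50443679 (- strand, nearest base 59 bases before the start): TGATGcAA
Trib3 at chr2:152344039-152344046 (+ strand, nearest base 15 bases after the start): TGATGtAA

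Of the sensors, Eif2ak3, which encodes PERK, read 128 in truncated Egr3, 96.9 in wildtype, 67.5 in RNA275 and 64.3 in RNA276, a difference of 0.40. Its brightest probe set was above the floor only in truncated Egr3 and wildtype, and both of its remaining probe sets were under the floor throughout. Atf6 read 197 in truncated Egr3, 136 in wildtype, 121 in RNA275 and 136 in RNA276, a difference of 0.53, but 2 probe sets on type B gave 0.13 and -0.02. Truncated Egr3 was the highest for both genes by the type A probe sets.

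Xbp1 read 2082 in truncated Egr3, 1673 in wildtype, 1384 in RNA275 and 1494 in RNA276, a difference of 0.32, and 3 other probe sets gave between -0.02 and 0.09. Splicing of Xbp1 by IRE1 was not analysed here. Ern1, which encodes IRE1 alpha, read 85.1 in truncated Egr3, 108 in wildtype, 63.7 in RNA275 and 87.0 in RNA276, a difference of -0.35. An Ern1 probe set on type B gave 0.31 (662 in truncated Egr3 and 534 in wildtype) and the other on that type gave -0.15. The sensor arm's median of 0.36 therefore rests on the choice of probe set: it was 0.10 with the median over measured probe sets of each gene.

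Across all 82 probe sets annotated to the 36 genes, 72 were measured, 59 of them above 0 and 13 below. For the 21 measured genes with another measured probe set, 28 of 36 other probe sets had the sign of the brightest one, and all of them did for 15 genes. The exceptions were in Asns, Atf6, Ern1, Hyou1, Phgdh and Xbp1.

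Other genes of these pathways, were counted in lists drawn up with earlier results of these data known. Beside the counts of these lists, 50.1% of all 10307 measured genes were above 0. Of 49 measured ER folding, secretion and degradation genes that are not among the 36, 33 were above 0, with a median of 0.13. Over all 54 of that list on the arrays the median was 0.09. The 1 gene at 2-fold was Ero1a, the oxidase that recharges disulfide isomerases, which read 1617 in truncated Egr3, 713 in wildtype, 265 in RNA275 and 313 in RNA276. Of 33 measured ATF4 targets outside the 36, 22 were above 0, with a median of 0.09 and none at 2-fold in either direction. The largest differences there were those of Gpt2, an alanine aminotransferase, at 0.77, and Aldh18a1, of proline synthesis, at 0.68. In the list of CHOP targets and apoptosis genes of ER stress, 7 of the 12 genes on the arrays were measured, and 6 of the 7 were above 0. The 7 had a median of 0.44 and a range from -0.34 to 1.18, the highest being Ero1a, which is also in the ER list. Car6 was above the floor in truncated Egr3 alone, a bound. Over all 12, with those below the floor at 0, the median was 0.004. The 5 measured genes of the ATF6 family and its proteases had a median of 0.14, with Creb3l1 and Mbtps2 furthest apart at -0.44 and 0.44. The 4 measured transcripts that IRE1 is known to degrade had a median of -0.11, with Pdgfrb at -0.45 and Col6a1 at 0.44.

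**Figure D5:**
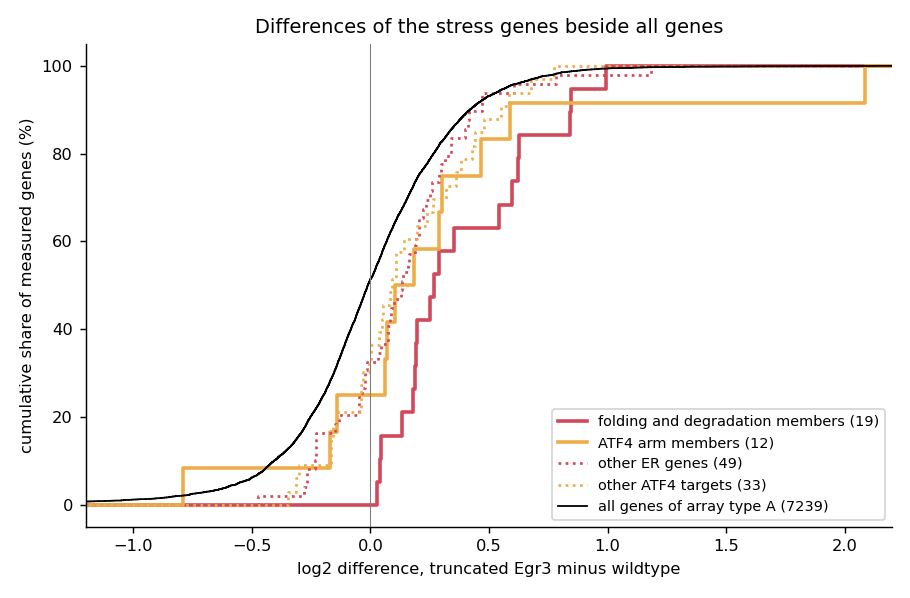
Lines give the cumulative share of measured genes at or below each log2 difference of truncated Egr3 minus wildtype. The folding and degradation members start above 0, the ATF4 arm has 3 of its 12 genes below 0 and ends with Ddit3 at 2.08, and the medians of the other ER genes and ATF4 targets, 0.13 and 0.09, lie above that of all 7239 type A genes, -0.01.

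The kinases that phosphorylate eIF2 were not higher in truncated Egr3, apart from Eif2ak3 above. Eif2ak2, or PKR, which senses double-stranded RNA and is induced by interferon, read 53.2 in truncated Egr3, 119 in wildtype, 108 in RNA275 and 109.8 in RNA276. Truncated Egr3 was below the floor, so the difference of -0.82 is a bound. Eif2ak1, the heme-regulated kinase, was at -0.15, and Eif2ak4, the kinase that senses uncharged tRNA, was below the floor in all 4 RNAs. The 13 measured eIF2 kinases and regulators of this list had 5 genes above 0 and 8 below, with a median of -0.05, and the highest was Impact, an inhibitor of the kinase encoded by Eif2ak4, at 0.22. Interferon response genes were lower in truncated Egr3 than in wildtype: 12 of 16 measured were 2-fold lower in truncated Egr3 and none was higher. Over all genes 1.13% were 2-fold lower. Of the 16, 13 were bounds, with truncated Egr3 below the floor. The summed signal of the 18 listed genes on the arrays, not floored, was 1796 in truncated Egr3, 7706 in wildtype, 8221 in RNA275 and 28149 in RNA276. Ddx58, read on type B, gave 767 of the sum in truncated Egr3 and 1519 of that in wildtype. The part of the interferon response in the stress gene differences was not tested.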

How the data were processed

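Total RNA of mouse myotubes was hybridised to 8 arrays, 4 RNAs on each of 2 array types. The authors deposited linear intensities, 1 per probe set. The software and normalization behind them: not given in the sources used here. Every array had a 2% trimmed mean of 150.0, and its scale was kept. Platform annotation named probe sets, updated by gene number through RefSeq (GRCm38.p6): 20351 of 20380 probe sets with 1 symbol matched on type A and 14486 of 14661 on type B. Controls, and probe sets without exactly 1 symbol, were left out of the genes. Floors were the 50th (type A) and 60th (type B) percentiles of truncated Egr3 and wildtype pooled, and 10307 genes were measured.

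The members, lists, thresholds and motifs were chosen with earlier results of these data known. Every member is accounted for; members at 2-fold, those among the 12 largest differences and the sensors are given in every RNA, and of each pathway list the genes at 2-fold, or the 2 furthest apart where none was, except that interferon genes are given as a sum. All eIF2 kinases are given. Alternatives were quantile, equal-median and loess (span 0.3) scalings, 3 other floors, other probe set choices and a 1.5-fold threshold. Calculations used pandas 2.3.3 and numpy 2.4.6 under Python 3.11.15, with loess from statsmodels 0.14.6. The number of arrays limits the precision.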

Additional observations from a re-analysis of the deposited data

Results flagged for a closer look

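RNA276, which belongs to no group, read at least 2-fold above wildtype for 2 stress genes: Ddit3 by 1.37 in log2 (332 in RNA276 against 129 in wildtype) and Syvn1 by 1.08 (499 against 235). These were singled out as signals in an RNA that the comparison of truncated Egr3 with wildtype does not use. Among 7276 type A genes with either RNA above the floor, 2.78% were 2-fold higher in RNA276 than in wildtype and 3.35% lower. Of the 34 stress genes with either RNA above the floor, 2 were higher, 5.88%, and 1 was lower, 2.94%. The stress gene Hsp90b1 was more than 2-fold lower in RNA276 (401 in RNA276 against 922 in wildtype). By the other measured probe set of Ddit3, Syvn1 and Hsp90b1, RNA276 and wildtype read less than 2-fold apart. Syvn1 read 1107 in RNA276 and 947 in wildtype there, and Hsp90b1 408 in RNA276 and 662 in wildtype. Ddit3 read 139 in RNA276 and 82.7 in wildtype, the latter below the type B floor. Of 35 stress genes with RNA275 or wildtype above the floor, none was 2-fold above or below wildtype in RNA275 after flooring. Among 7319 type A genes, 1.56% were 2-fold higher in RNA275 than in wildtype and 0.874% lower. The 2-fold rule for these RNAs was chosen after values were known.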

How the results depend on the processing

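The direction of the median was positive for all stress genes and for each arm under every alternative run, and Ddit3 stayed above 2-fold, between 1.65 and 2.15. The count of members 2-fold higher was 2 with equal medians (with Dnajb9 at 1.06), with the lower floor and with no floor (with Pdia4 at 1.17), and without cross-hybridising probe sets (with Herpud1 at 1.004), and it was 8 at 1.5-fold. The count 2-fold lower was 1, Atf3, with the lower floor, with no floor and at 1.5-fold, and the count 1.5-fold lower was 0 with the higher floor. The count 1.5-fold higher ranged from 6 with the higher floor to 10 with equal medians, where 7.52% of all genes were 1.5-fold higher and 61.0% above 0; without a floor 8.47% of all genes were 1.5-fold higher. The sensor median was 0.030 with the median over all probe sets and 0.10 over measured ones; the cause was not tested. The median of all members ranged from 0.24 to 0.33. Members highest in truncated Egr3 numbered 21 of 35 with equal medians, against 22.6% of type A genes. Equal medians moved the median of all type B genes to 0.17 and that of type A to 0.05, where the folding arm's median was 0.33. Among all genes, 55 were 2-fold higher and 116 lower; the counts were 87 and 93 with equal medians, 84 and 185 with the lower floor, and 603 and 1206 with no floor. Of 350 member values recomputed, 44 moved by over the technical SD and 8, in 5 genes (Asns, Ern1, Hyou1, Phgdh and Xbp1), had the other sign; the cause was not tested. The median over measured probe sets, and all alternatives for counts at 1.5-fold, above 0 and over the 4 RNAs, were chosen after seeing the data. Genes near the floor, such as Pdia4, Sdf2l1, Atf3, Ern1 and Eif2ak3, are limited by low signal.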

Other observations

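Chaperones of other compartments were listed too. Beside the counts of this section, 50.1% of all measured genes were above 0. Of 11 measured genes of the cytosolic heat shock response, 4 were above 0 and 7 below in truncated Egr3 minus wildtype, with a median of -0.30. Hspa1b, an inducible Hsp70, read 229.6 in truncated Egr3, 424 in wildtype, 452 in RNA275 and 515 in RNA276, and Hspa4l was at -0.69. Hspa1a, a near-identical copy whose probe sets may share signal with Hspa1b, was at -0.59, a bound. Of the 8 measured mitochondrial chaperones and proteases, 5 were above 0, with a median of 0.11, Lonp1 at 0.47 and Hspe1 at -0.34.

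Targets of NRF2, the factor of the oxidative stress response that also drives Slc7a11, were below 0 in 8 of 9 measured cases, with a median of -0.06. Hmox1, which degrades heme, was the furthest apart at -0.48 (75.2 in truncated Egr3 and 105 in wildtype), followed by Gclc, of glutathione synthesis, at -0.31.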
